A study of Mus musculus with 6 samples.

Results

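The endoplasmic reticulum (ER) folding and unfolded protein response genes described here are 35 genes picked by name from the deposited table of 54532 genes. They comprise 2 ER oxidases, 4 protein disulfide isomerases, 11 ER chaperones and co-chaperones, 6 genes of ER-associated degradation, 3 stress sensors with Xbp1, and 8 genes of the ATF4 branch. The symbol Ddit3 stood on 2 rows of the table, so that the 35 genes occupied 36 rows. Secreted and membrane proteins gain their disulfide bonds and sugars in the ER, where oxidases of the ERO1 family recharge the disulfide isomerases and hand the electrons to oxygen. Unfolded protein in the ER activates the sensors IRE1, PERK and ATF6. IRE1 splices Xbp1 mRNA, PERK slows translation through eIF2α and favours translation of ATF4, and cleaved ATF6 enters the nucleus, after which chaperone, degradation and amino acid genes are transcribed. In macrophages the same sensors modulate the response to microbial stimuli.

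RNA-seq libraries had been made from primary mouse macrophages that were differentiated in culture from bone marrow. The 3 NSUN2-KO libraries came from mice labelled as knockouts of Nsun2, an RNA methyltransferase that makes 5-methylcytosine, chiefly in tRNAs, and the 3 NC libraries from mice labelled NC. The sources used here do not give what NC abbreviates, how the knockout was made, or the strain, age and sex of the animals. All 6 cultures had been polarized to the inflammatory M1 state with LPS and IFN-γ, and no unstimulated cells were analysed here, so that every difference below is between stimulated cells. The replicates are given as biological without saying which animal each came from, and p-values measure the spread between these libraries. The series' text counts 3 replicates per group where it describes the sequencing and 2 where it names the authors' own test, and the 3 libraries of each group were used here. The comparison of NSUN2-KO with NC asks whether loss of NSUN2 altered the M1 transcriptome, and here whether the ER and ATF4 genes took part.

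The FPKM values (fragments per kilobase of transcript, scaled to the mapped fragments of the library) corresponded to 35019033 to 45636131 reads per library. Nsun2 measured 0.967, 1.36 and 0.863 FPKM in the NSUN2-KO libraries, against 1.88, 2.04 and 1.84 FPKM in the NC libraries. The groups did not overlap, but NSUN2-KO retained 55.4% of the NC mean (limma log2 difference -0.51, SE 0.10, adjusted p = 0.0228; exact two-sided permutation p = 0.1, the smallest that 3 against 3 libraries allow). The Nsun2 call was lost in limma when low genes were kept in the fit (adjusted p = 0.113) and in 5 of the 6 fits that left out 1 library (adjusted p of 0.0534 to 0.0845), and it held without NSUN2-KO replicate 2 (adjusted p = 0.0120). The exons that gave the remaining reads cannot be read from a value per gene. All 9 macrophage markers looked for were expressed. Csf1r averaged 193 ± 5.96 FPKM in NSUN2-KO and 191 ± 3.45 FPKM in NC (SD, n = 3 each), and Adgre1 averaged 692 ± 21.2 FPKM in NSUN2-KO and 645 ± 12.9 FPKM in NC. The 9 markers, of which 1 was called higher and 4 lower, summed to 3390 to 3428 FPKM in NSUN2-KO and 3954 to 4041 FPKM in NC, with Lyz2 the most abundant (1163 ± 47.1 FPKM in NSUN2-KO and 1736 ± 31.2 FPKM in NC). Of 12 neutrophil markers, 5 were high enough to test and 3 were called lower, with sums of 79.9 to 84.0 FPKM in NSUN2-KO and 99.1 to 107 FPKM in NC, and Elane and Retnlg at 0. The 9 dendritic cell markers summed to 8.87 to 10.3 FPKM in NSUN2-KO and 5.75 to 6.84 FPKM in NC. Of the 2 that were tested, Ccr7 was called higher (5.24 ± 0.32 FPKM in NSUN2-KO and 2.98 ± 0.65 FPKM in NC, SD, n = 3 each) and Xcr1 was not. The 10 B and plasma cell markers summed to 6.26 to 6.66 FPKM in NSUN2-KO and 4.99 to 5.75 FPKM in NC, of which Sdc1, the 1 tested and not called, made up 5.32 to 5.75 FPKM in NSUN2-KO and 4.82 to 5.45 FPKM in NC, with Mzb1 at 0. The 10 T and NK cell markers stayed at or below 0.252 FPKM in sum, with Cd3e and Cd3g at 0, and the 8 stromal markers summed to 0.754 to 1.04 FPKM in NSUN2-KO and 1.62 to 1.72 FPKM in NC. Ddx3y, Eif2s3y, Uty and Kdm5d, which are Y-linked, had 0 reads in each NSUN2-KO library and summed to 13.9 to 14.6 FPKM in NC, and Xist measured 29.4 to 31.8 FPKM in NSUN2-KO and 14.0 to 15.5 FPKM in NC. This difference in sex-linked RNA and the Nsun2 genotype cannot be told apart, and the part of the marker lists in the results below was not tested.

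Among the ER and ATF4 genes, 1 oxidase, 1 disulfide isomerase and a pair of chaperones were higher in NSUN2-KO macrophages, and 1 gene of the ATF4 branch was lower. Ero1l rose, at 1.73 times the NC level, and P4hb, Hsp90b1 and Canx rose by 8.63% to 14.0%. Nupr1 fell by 34.7%. The sensors, Xbp1, Atf4, Ddit3 and all 6 degradation genes did not pass the test. A difference here is the log2(FPKM + 1) value in NSUN2-KO minus that in NC, tested with limma over the 9443 genes that averaged 1 FPKM or more, and called at an adjusted p below 0.05.

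Of the 36 rows, 34 were tested, each for a different gene. Chac1 and the second Ddit3 row stayed below 1 FPKM. The tested genes gave 4 higher calls, beside 4.19% of all tested genes, and 1 lower call, beside 4.3% of all tested genes. The higher calls numbered 1, that of Ero1l, without NSUN2-KO replicate 1 or 2 or NC replicate 2 or 3. In either direction 5 of 34 (14.7%) were called, beside 8.49% of all tested genes. The 3 values of each group lay apart in 14 of the 34 (41.2%), beside 31.1% of all tested genes, and 12 (35.3%) had an unadjusted p below 0.05, beside 25.5% of all tested genes. Calls were more frequent at higher levels in general: at 10 FPKM or more, 5 of 27 of these genes (18.5%) and 486 of 3471 of all genes (14.0%) were called. Differences were positive in 21 and negative in 13, with a median of 0.03 against -0.01 for all tested genes. The size of the differences resembled that of all genes, with a median absolute value of 0.08 in each set, and 20 of the 34 (58.8%) lay within 0.1 of 0, as did 57.9% of all tested genes. In bulk RNA, fewer cells of a type and less RNA per cell cannot be told apart, and this holds for each gene below.

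**Figure D1:**
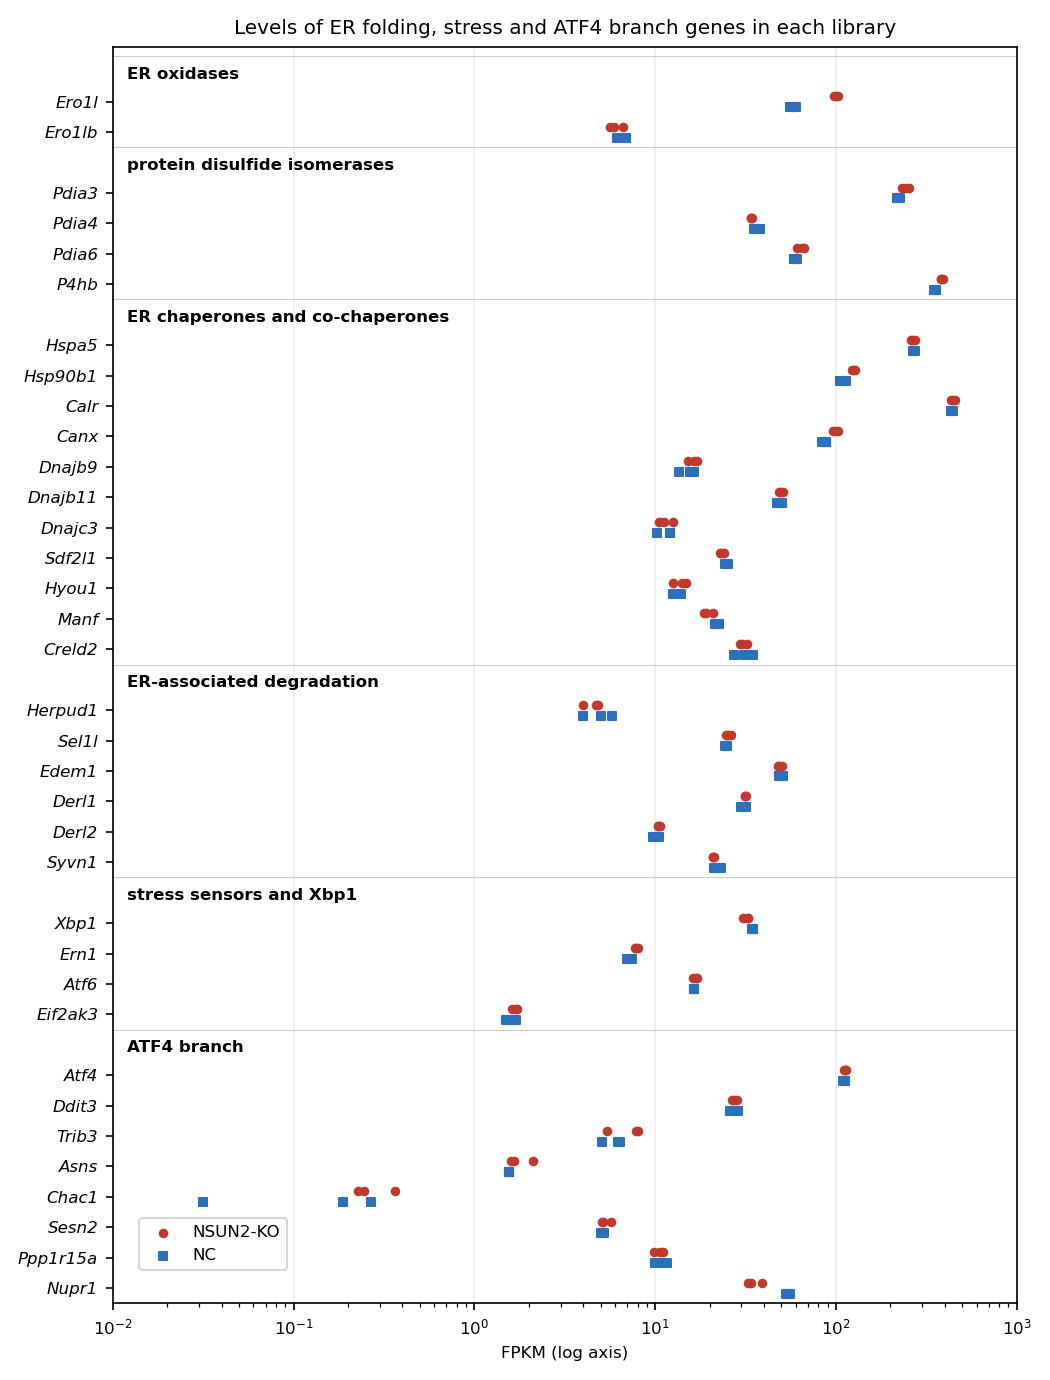
FPKM on a log axis of each of the 35 genes in each library, NSUN2-KO as red circles and NC as blue squares (3 libraries each), grouped by role. Levels run from Chac1, at 0.365 FPKM or less, to Calr, at 434 to 456 FPKM in NSUN2-KO, and only Ero1l and Nupr1 show the groups clearly apart at this scale.

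Of the ER oxidases, 1 of 2 was called, beside 8.49% of all tested genes, and it rose. Ero1l (ENSMUSG00000021831, chromosome 14, 45283087 to 45318771, minus strand, GRCm38) encodes ERO1α, the oxidase that passes electrons from the disulfide isomerases to oxygen and makes hydrogen peroxide in doing so. It measured 103, 101 and 97.6 FPKM in the NSUN2-KO libraries, against 60.5, 55.9 and 58.4 FPKM in the NC libraries. Every NSUN2-KO library stood far above every NC library, with 18684 to 21933 reads in NSUN2-KO and 12090 to 13528 reads in NC. The means were 100.5 ± 2.85 FPKM in NSUN2-KO and 58.3 ± 2.28 FPKM in NC (SD, n = 3 each), a difference of 0.78 (SE 0.04, 95% interval 0.69 to 0.87, limma adjusted p = 9.45e-05). By size of increase it ranked 16 of the 9443 tested genes. The call held in all 17 alternative analyses, with differences from 0.72 to 0.80. Ero1lb (ENSMUSG00000057069), which encodes the second oxidase ERO1β, measured 5.90, 6.61 and 5.60 FPKM in NSUN2-KO, against 6.63, 6.16 and 6.90 FPKM in NC. These groups overlapped, and the difference of -0.11 (interval -0.26 to 0.05) did not pass (limma adjusted p = 0.376). It was -0.16 when NSUN2-KO replicate 2 was left out and -0.06 when replicate 3 was. The ratio of Ero1l to Ero1lb within a library, formed after seeing the values, was 16.7 ± 1.29 in NSUN2-KO and 8.89 ± 0.37 in NC (SD, n = 3 each).

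**Figure D2:**
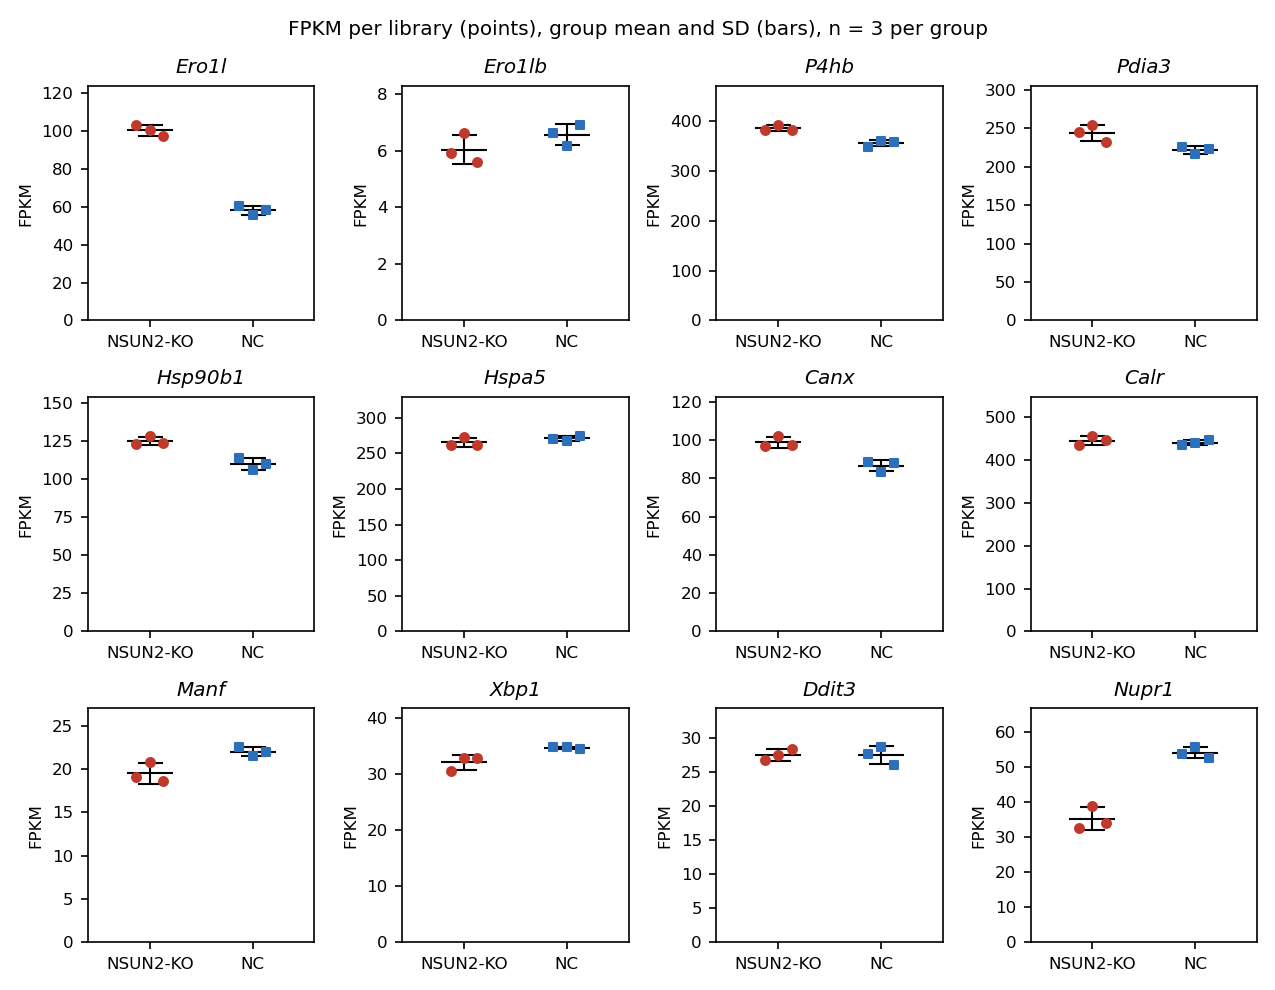
FPKM per library (points) with the mean and SD (bars, n = 3) of 12 genes, NSUN2-KO in red on the left and NC in blue on the right of each panel, each axis from 0. Ero1l is higher and Nupr1 lower in every NSUN2-KO library, P4hb, Hsp90b1 and Canx are higher by a small step, and Hspa5, Calr and Ddit3 overlap.

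ERO1α has been described as a target of the hypoxia factor HIF-1, and ERO1β of the unfolded protein response, and the start sites of these genes are therefore shown. RefSeq promoter windows (GRCm38.p6, 250 bases before to 50 after the start site) could be matched by symbol for 31 of the 35 genes, with Ero1l listed as Ero1a and Ero1lb as Ero1b. Hyou1, Manf, Derl1 and Atf6 had none. The HIF-1 core was searched as ACGTG and GCGTG on both strands, letters that can overlap the CCACG end of the ER stress element described further on. The RefSeq start site of Ero1l and the 150 bases before it lie inside the span of the deposited gene. In the 150 bases before the Ero1l start site, 1 ACGTG on the opposite strand (read here as CACGT) and 2 GCGTG are in capitals.

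Ero1l, chr14:45318573-45318722, minus strand: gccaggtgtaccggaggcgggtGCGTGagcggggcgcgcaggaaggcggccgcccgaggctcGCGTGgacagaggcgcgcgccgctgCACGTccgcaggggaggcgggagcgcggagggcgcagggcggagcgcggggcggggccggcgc

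The letters ACGTG occurred in 19.6% and GCGTG in 32.4% of all 32851 windows, and in 12 and 22 of the 31 matched genes. Like the Ero1l window, those of Pdia6, Asns and Ddit3, which were not called, held 1 ACGTG and 2 GCGTG. Other uncalled genes held fewer or more. Each match is a description of these letters and not of a bound site. The Ero1l window held no ER stress element, whereas the Ero1lb window held 1, along with 1 GCGTG and 0 ACGTG. GC content was 80.3% in the Ero1l window and 64.7% in the Ero1lb window.

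The disulfide isomerases form and rearrange disulfide bonds and are recharged by the ERO1 oxidases. Of the 4 isomerases, 1 was called, beside 8.49% of all tested genes. P4hb (ENSMUSG00000025130), the founding member of the family and also a subunit of collagen prolyl 4-hydroxylase, measured 382, 391 and 382 FPKM in NSUN2-KO, against 348, 359 and 357 FPKM in NC. The groups lay apart by a narrow margin. P4hb averaged 385 ± 5.47 FPKM in NSUN2-KO and 355 ± 6.03 FPKM in NC (SD, n = 3 each), and the difference was 0.12 (SE 0.03, limma adjusted p = 0.0409). The call was lost in 9 of 17 alternatives, among them each of the 6 that left out 1 library. Over all alternatives the difference stayed between 0.10 and 0.17, and the adjusted p reached 0.132. Pdia3, also called ERp57, which works with calnexin and calreticulin on glycoproteins, measured 245, 254 and 233 FPKM in NSUN2-KO, against 225, 217 and 224 FPKM in NC. Its groups did not overlap either, but the difference of 0.14 missed the threshold (limma adjusted p = 0.0728) and passed in 5 of 17 alternatives. Pdia6 measured 61.0 to 66.7 FPKM in NSUN2-KO and 58.5 to 60.6 FPKM in NC (0.12, limma adjusted p = 0.121). Pdia4, also called ERp72, had the opposite sign, with 33.9 to 34.4 FPKM in NSUN2-KO and 35.2 to 38.1 FPKM in NC (-0.10, limma adjusted p = 0.140). The 3 values of each group lay apart in all 4 isomerases, above NC in 3 and below it in Pdia4. They lay apart in 31.1% of all tested genes, and 1 of the 4 isomerases was called.

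The chaperones did not move as a block. Hspa5 encodes BiP, the ER Hsp70 whose induction is the usual readout of ER stress. It measured 262, 273 and 262 FPKM in NSUN2-KO, against 271, 268 and 274 FPKM in NC. The groups overlapped, and the 95% interval of the difference ran from -0.10 to 0.04 (limma adjusted p = 0.568). Hsp90b1 (ENSMUSG00000020048) encodes GRP94, the ER Hsp90 that Toll-like receptors and integrins need in order to fold. It measured 123, 128 and 124 FPKM in NSUN2-KO, against 114, 106 and 110 FPKM in NC. The groups lay apart, with means of 125 ± 2.84 FPKM in NSUN2-KO and 109.8 ± 3.96 FPKM in NC (SD, n = 3 each) and a difference of 0.19 (SE 0.04, limma adjusted p = 0.0216). Of its annotated exon bases, 15.7% also lie in other genes (1810014B01Rik, Gm15344 and Gm25745), so that some of its reads are uncertain. In each library the ratio of Hsp90b1 to Hspa5, formed after seeing the values, was 0.471 ± 0.0017 in NSUN2-KO and 0.405 ± 0.013 in NC (SD, n = 3 each).

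Canx and Calr encode calnexin and calreticulin, the membrane-bound and soluble lectin chaperones of new glycoproteins. Canx (ENSMUSG00000020368) measured 97.0, 102 and 97.3 FPKM in NSUN2-KO, against 88.7, 83.6 and 87.8 FPKM in NC. Its groups lay apart, with means of 98.8 ± 2.87 FPKM in NSUN2-KO and 86.7 ± 2.76 FPKM in NC (SD, n = 3 each) and a difference of 0.19 (SE 0.04, limma adjusted p = 0.0225). Calr measured 434, 456 and 447 FPKM in NSUN2-KO, against 436, 439 and 447 FPKM in NC, and the groups overlapped (difference 0.02, limma adjusted p = 0.785). The calls of Hsp90b1 and Canx were each lost in the same 7 of 17 alternatives: no filter on low values, no mean-variance trend, the replicate block, and without NSUN2-KO replicate 1 or 2 or NC replicate 2 or 3. The adjusted p then reached 0.0794 for Hsp90b1 and 0.0833 for Canx, and the differences stayed positive, at 0.14 to 0.21 for Hsp90b1 and 0.13 to 0.20 for Canx.

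The other 7 chaperones and co-chaperones were not called. Manf, a secreted factor that binds BiP, measured 19.1, 20.8 and 18.6 FPKM in NSUN2-KO, against 22.5, 21.5 and 21.9 FPKM in NC. Every NSUN2-KO library lay below every NC library, and the difference of -0.17 (SE 0.05) missed the threshold (limma adjusted p = 0.0760) but passed in 3 of 17 alternatives. Of its exon bases, 9.25% lie in other genes, Dcaf1 and Rbm15b among them. Sdf2l1, a partner of the BiP co-chaperone ERdj3, also lay below NC without overlap, at 23.0 to 23.9 FPKM in NSUN2-KO and 24.3 to 25.1 FPKM in NC (-0.08, limma adjusted p = 0.185). The remaining 5 overlapped: Dnajb9 (ERdj4), Dnajb11 (ERdj3) and Dnajc3 (p58IPK), which are J-domain partners of BiP, Hyou1 (GRP170), its nucleotide exchange factor, and Creld2, an ER stress-inducible factor. Their differences ran from -0.01 for Creld2 to 0.10 for Dnajb9. Over the 11 chaperones and co-chaperones, 2 were higher, 0 lower and 9 not called, with a median difference of 0.02. Of all tested genes, 8.49% were called.

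The ER stress element (ERSE), through which ATF6 and XBP1 act together with NF-Y, is CCAAT and CCACG spaced 9 bases apart, and was searched on both strands. It was present in 39 of the 32851 windows (0.119%) and in 9 of the 31 matched genes, 6 of them chaperones or co-chaperones. Its copies are shown because they stand before called and uncalled genes alike. The 5 bases at each end of the element are in capitals with 20 bases on each side, on the strand of the gene, and an element on the opposite strand reads CGTGG before ATTGG.

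Hspa5, chr2:34772005-34772063, plus strand: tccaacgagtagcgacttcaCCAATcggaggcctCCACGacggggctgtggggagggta
Hsp90b1, chr10:86705618-86705676, minus strand: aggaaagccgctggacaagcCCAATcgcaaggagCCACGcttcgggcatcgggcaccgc
Hsp90b1, chr10:86705513-86705571, minus strand: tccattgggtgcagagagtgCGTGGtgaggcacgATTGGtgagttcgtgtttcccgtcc
Calr, chr8:84847055-84847113, minus strand: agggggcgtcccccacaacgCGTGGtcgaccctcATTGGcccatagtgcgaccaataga
Canx, chr11:50325780-50325838, minus strand: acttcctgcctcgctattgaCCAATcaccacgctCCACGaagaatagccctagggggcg
Dnajc3, chr14:118937807-118937865, plus strand: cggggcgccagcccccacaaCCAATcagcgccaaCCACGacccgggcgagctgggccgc
Creld2, chr15:88819500-88819558, plus strand: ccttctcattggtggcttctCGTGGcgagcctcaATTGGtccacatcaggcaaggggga
Pdia6, chr12:17266471-17266529, plus strand: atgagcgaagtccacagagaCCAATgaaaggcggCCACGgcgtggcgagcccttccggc
Syvn1, chr19:6046512-6046570, plus strand: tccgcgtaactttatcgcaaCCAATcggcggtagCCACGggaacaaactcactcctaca
Ero1lb, chr13:12565662-12565720, plus strand: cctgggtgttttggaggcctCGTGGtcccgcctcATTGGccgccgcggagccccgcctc

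Hsp90b1 held 2 copies, which began 212 and 107 bases before the start site, and the single copies of the other genes began between 201 (Ero1lb) and 44 (Syvn1) bases before it. Of these 9 genes, Hsp90b1 and Canx were called higher and the other 7 were not called, with differences from -0.11 for Ero1lb to 0.12 for Pdia6. Neither Ero1l nor P4hb held the element. Of the stretches shown, only that of Hspa5 lies inside the span of the deposited gene. The XBP1 element TGACGTGG was in 222 windows (0.676%) and in 0 of the 31 matched genes, which says only that these letters are not within the windows.

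The 6 genes of ER-associated degradation, which returns misfolded proteins to the cytosol for the proteasome, gave 0 calls, beside 8.49% of all tested genes. An unadjusted p below 0.05 in limma was reached by 0 of them, beside 25.5% of all tested genes. Syvn1 encodes HRD1, the ubiquitin ligase of the pathway, and Sel1l its cofactor. Syvn1 measured 20.9 to 21.2 FPKM in NSUN2-KO and 21.3 to 23.1 FPKM in NC, without overlap (-0.07, limma adjusted p = 0.350). Sel1l measured 24.7 to 26.3 FPKM in NSUN2-KO and 24.4 to 24.8 FPKM in NC, and the groups overlapped (0.04). Edem1, which selects glycoproteins for degradation, and the membrane proteins Derl1 and Derl2 overlapped as well, with differences from -0.01 to 0.05. Herpud1, an adaptor of HRD1 and a gene that is strongly induced by ER stress, measured 4.00 to 4.81 FPKM in NSUN2-KO and 4.00 to 5.79 FPKM in NC. Its interval was wide, from -0.36 to 0.17 around a difference of -0.10. Summed over the 6 genes, the level was 142 ± 2.67 FPKM in NSUN2-KO and 142 ± 0.79 FPKM in NC (SD, n = 3 each).

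Herpud1 was 1 of 2 matched genes with the second form of the stress element, ERSE-II, which is ATTGG and CCACG 1 base apart and was in 12 windows (0.0365%). Dnajb11 held the other, after its start site. The Herpud1 copy is in capitals.

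Herpud1, chr8:94386357-94386407, plus strand: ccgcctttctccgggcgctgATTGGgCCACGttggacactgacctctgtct

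The sensors and Xbp1 were not called, beside 8.49% of all tested genes that were. Ern1, which encodes IRE1α, measured 7.88, 7.78 and 8.01 FPKM in NSUN2-KO, against 7.40, 6.96 and 7.24 FPKM in NC. Xbp1, whose mRNA IRE1 splices, measured 30.5, 32.9 and 32.8 FPKM in NSUN2-KO, against 34.8, 34.8 and 34.4 FPKM in NC. Neither pair of groups overlapped, and the differences had opposite signs: 0.12 for Ern1 (limma adjusted p = 0.143) and -0.11 for Xbp1 (limma adjusted p = 0.124). Neither passed in any of the 17 alternatives. A value per gene does not separate spliced from unspliced Xbp1 mRNA, and splicing was not measured here. Atf6 measured 16.2 to 17.1 FPKM in NSUN2-KO and 16.3 to 16.5 FPKM in NC, and Eif2ak3, which encodes PERK, 1.62 to 1.73 FPKM in NSUN2-KO and 1.496 to 1.70 FPKM in NC. Both overlapped, with differences of 0.02 and 0.05.

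**Figure D3:**
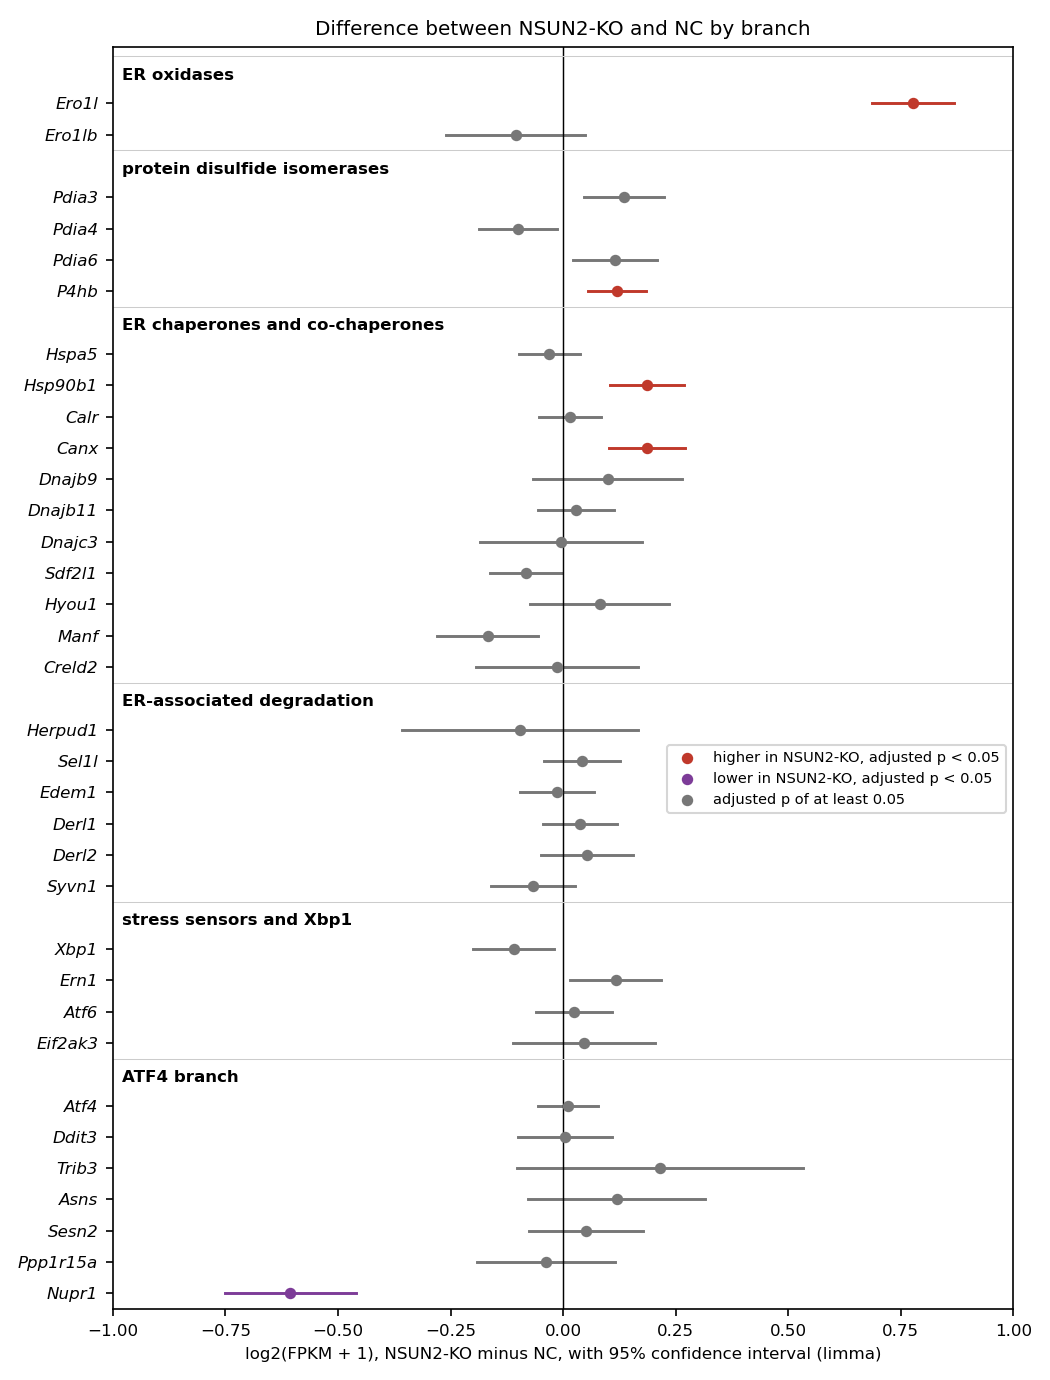
Difference in log2(FPKM + 1), NSUN2-KO minus NC, with its 95% confidence interval from limma for each of the 34 tested genes, grouped by role, with red for called higher, purple for called lower and grey for not called. Ero1l at 0.78 and Nupr1 at -0.61 stand apart, and the intervals of P4hb, Hsp90b1 and Canx lie between 0.05 and 0.27.

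In the ATF4 branch, 1 of 7 tested genes was called, beside 8.49% of all tested genes, and it fell. Atf4 mRNA measured 111, 114 and 112 FPKM in NSUN2-KO, against 112, 110 and 113 FPKM in NC. The groups overlapped, with a difference of 0.01 (interval -0.06 to 0.08, limma adjusted p = 0.857). ATF4 is controlled largely by translation of its mRNA, so the mRNA level leaves the protein unmeasured. Ddit3, which encodes the ATF4 partner and target CHOP, measured 26.6, 27.4 and 28.4 FPKM in NSUN2-KO, against 27.6, 28.6 and 26.0 FPKM in NC, and the groups overlapped as well (difference 0.00, interval -0.10 to 0.11, limma adjusted p = 0.959). Of its exon bases, 10.9% lie in other genes, among them the second Ddit3 row (ENSMUSG00000116429), which lies wholly inside the first and had 0 reads in each library.

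Nupr1 (ENSMUSG00000030717, chromosome 7, 126623249 to 126630861, minus strand, GRCm38) encodes a small stress-induced chromatin protein that acts with ATF4. It measured 32.7, 39.0 and 34.1 FPKM in NSUN2-KO, against 53.9, 55.8 and 52.6 FPKM in NC. Every NSUN2-KO library lay below every NC library. The means were 35.3 ± 3.32 FPKM in NSUN2-KO and 54.1 ± 1.58 FPKM in NC (SD, n = 3 each), a difference of -0.61 (SE 0.06, 95% interval -0.75 to -0.46, limma adjusted p = 0.00180). By size of decrease it ranked 27 of the 9443 tested genes. The call held in all 17 alternatives, with differences from -0.68 to -0.55, and none of its exon bases lie in another annotated gene.

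The other classical targets did not pass. Trib3, a pseudokinase that feeds back on ATF4 signalling, measured 7.88, 5.42 and 8.01 FPKM in NSUN2-KO, against 5.08, 6.27 and 6.43 FPKM in NC. NSUN2-KO replicate 2 lay among the NC libraries, and the difference of 0.22 had a wide interval (-0.10 to 0.53, limma adjusted p = 0.378). Leaving out 1 library moved it between 0.12 (without NC replicate 1) and 0.37 (without NSUN2-KO replicate 2), and it was 0.14 and 0.13 without NSUN2-KO replicates 1 and 3. Asns, which encodes asparagine synthetase, measured 2.10, 1.66 and 1.60 FPKM in NSUN2-KO, against 1.56, 1.56 and 1.55 FPKM in NC. The groups lay apart by a margin of less than 0.1 FPKM, with replicate 1 the highest NSUN2-KO library and a difference of 0.12 (limma adjusted p = 0.429). Without that library the difference was 0.04. Sesn2, which senses leucine upstream of mTORC1, and Ppp1r15a, which encodes the eIF2α phosphatase subunit GADD34, overlapped, with differences of 0.05 and -0.04. Chac1, which encodes an enzyme that degrades glutathione, rested on 24, 14 and 14 reads in NSUN2-KO, against 2, 20 and 12 reads in NC, and was too low to test.

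The amino acid response element to which ATF4 binds with C/EBP partners was searched as TGATGNAA on both strands. It was in 1304 windows (3.97%) and in 5 of the 31 matched genes: Nupr1, Asns, Chac1, Trib3 and Herpud1. The copy of Trib3 lies after its start site, and the others are shown in capitals, on the strand of the gene, with 20 bases on each side, or fewer where the start site intervenes. The RefSeq start sites of Nupr1 and Asns, and the stretches shown before them, lie inside the spans of the deposited genes. The copies stand before the called gene and before genes that were not called, and binding to them was not tested.

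Nupr1, chr7:126625553-126625600, minus strand: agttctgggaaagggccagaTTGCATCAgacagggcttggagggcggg
Asns, chr6:7693210-7693252, minus strand: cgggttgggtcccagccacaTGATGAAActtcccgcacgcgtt
Chac1, chr2:119351029-119351076, plus strand: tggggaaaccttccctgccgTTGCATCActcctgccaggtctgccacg
Herpud1, chr8:94386297-94386344, plus strand: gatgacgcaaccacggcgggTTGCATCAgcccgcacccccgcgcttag

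Nupr1, Chac1 and Herpud1 carried the same 8 letters on the opposite strand, which began 110, 193 and 112 bases before the start site, and Asns carried its copy on the gene strand, 23 bases before it. Of these 4 genes, Nupr1 was called lower, Asns and Herpud1 were not called and Chac1 was not tested.

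Further genes of the same pathways were read from 9 lists, of whose 174 names 170 were in the table under those symbols and 137 were tested. Of these, 4 were higher and 1 was lower (3.65%), beside 8.49% of all tested genes, and the median difference was 0.01 against -0.01 for all tested genes. Slc7a11, the cystine transporter subunit that supplies glutathione synthesis and a target of ATF4, measured 23.8, 22.1 and 22.1 FPKM in NSUN2-KO, against 15.3, 14.2 and 14.7 FPKM in NC. The groups lay far apart (difference 0.59, SE 0.05, limma adjusted p = 0.000623). Stc2, a secreted glycoprotein of the same list of 17 tested ATF4 and CHOP targets, averaged 1.70 ± 0.13 FPKM in NSUN2-KO and 0.957 ± 0.11 FPKM in NC (SD, n = 3 each; 0.47, limma adjusted p = 0.0141). The NC mean of Stc2 lay under the floor of 1 FPKM, so that its NSUN2-KO level brought it into the test. Once genes under that floor were fitted too, Stc2 missed the threshold (limma, adjusted p = 0.0739). No other gene of the list of 17 was called, and Jdp2, next by p, differed by -0.17 (limma adjusted p = 0.0786).

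Among 12 oligosaccharyltransferase subunits, which attach N-glycans, only Magt1, an X-linked gene, was called: 15.0 ± 0.35 FPKM in NSUN2-KO and 12.8 ± 0.31 FPKM in NC (SD, n = 3 each; 0.21, limma adjusted p = 0.0201). Tusc3 and Stt3b differed by 0.20 and 0.13 without passing. Among 12 aminoacyl-tRNA synthetases and related genes, only Xpot, the export factor for tRNAs, was called, at 19.6 ± 0.29 FPKM in NSUN2-KO and 17.3 ± 0.80 FPKM in NC (SD, n = 3 each; 0.18, limma adjusted p = 0.0466), whereas Gars and Wars differed by 0.10 and -0.09 without passing. Among 15 other folding factors, only Cnpy4, which assists Toll-like receptor folding, was called, and it was lower, at 8.56 ± 0.80 FPKM in NSUN2-KO and 10.5 ± 0.26 FPKM in NC (SD, n = 3 each; -0.26, limma adjusted p = 0.0464). In the same list Serp1 and Creld1 differed by 0.14 and 0.18 without passing. The call of Slc7a11 held in all 17 alternatives, whereas those of Stc2 and Magt1 were lost in 2 and 7 of 16 alternatives and those of Cnpy4 and Xpot in 9 and 11 of 17.

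Of all tested genes, 8.49% were called in limma and 25.5% reached an unadjusted p below 0.05. The remaining 5 lists gave 0 calls. They were 23 genes of signal peptide recognition and translocation (5 with an unadjusted p below 0.05; smallest p in Ssr1, Sec62 and Srpr), 24 other degradation factors (5; Rnf5, Ube2j1 and Os9), 12 other thiol oxidoreductases (2; Prdx4, Tmx3 and Tmx2), 11 eIF2 kinases, phosphatase and exchange factor genes (2; Eif2ak2, Eif2b2 and Eif2b4) and 11 partners of ATF6 and IRE1 (1; Creb3l1, Nfyb and Mbtps1). Rnf5 had the largest difference of these, -0.57, with 5.91, 6.11 and 9.78 FPKM in NSUN2-KO, against 11.4, 10.5 and 11.3 FPKM in NC. NSUN2-KO replicate 3 lay close to the NC libraries, and the adjusted p in limma was 0.0621. Rnf5 passed in 3 of 17 alternatives: a mean of at least 5 FPKM, voom on recovered reads, and without NSUN2-KO replicate 3. Creb3l1 differed by -0.19 (limma adjusted p = 0.170).

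**Figure D4:**
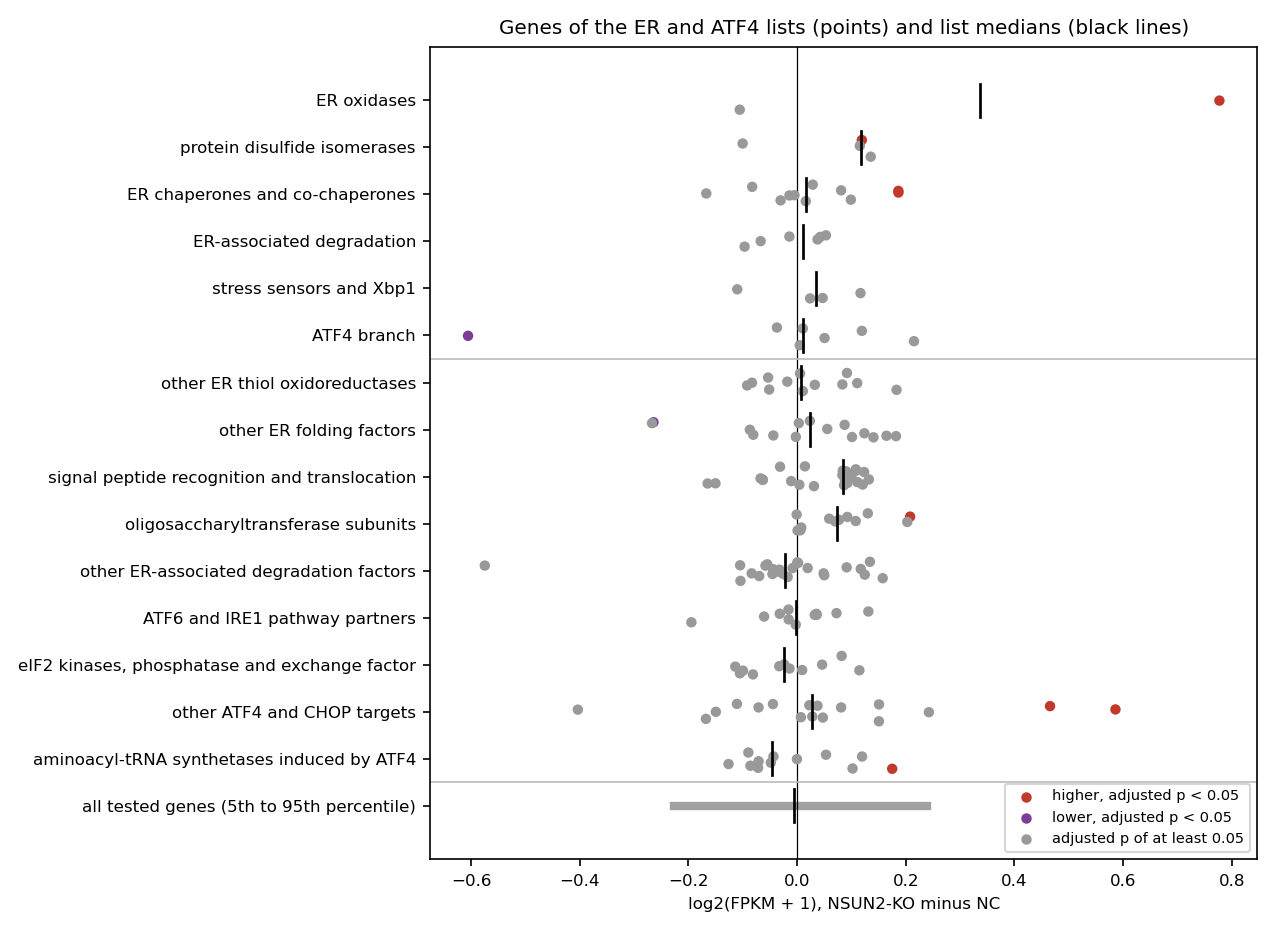
Difference in log2(FPKM + 1), NSUN2-KO minus NC, of each tested gene (points, coloured by call) in the 6 groups described here and in 9 further lists of the same pathways, with list medians as black lines and the 5th to 95th percentile of all tested genes (-0.23 to 0.24) as a grey bar. Most points lie within that bar, with Ero1l, Slc7a11 and Stc2 farthest to its right and Nupr1 and Rnf5 farthest to its left.

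Differences followed base composition in these libraries. The Spearman correlation between difference and transcript GC content was -0.385 over 9433 tested genes and -0.23 over the 34 genes described here, where genes of 1 library share its composition and are no replicates. GC content was 42.9% in Ero1l, 42.9% in Hsp90b1 and 42.4% in Canx, below the median of 50.1% over the 34, whereas it was 54.0% in P4hb and 52.5% in Nupr1. Once the trend over GC content and length had been taken out of each library, 5 of the genes were called higher, Pdia3 being the fifth, and 1 lower. The differences of Hsp90b1 and Canx were then smaller, at 0.14 and 0.13 in place of 0.19 each. That of P4hb was larger, at 0.17 in place of 0.12. Ero1l differed by 0.72 in place of 0.78, and Nupr1 by -0.57 in place of -0.61. With all genes on X and Y left out, the counts were 4 higher and 1 lower, and none of the 35 genes lies on either chromosome. Leaving out other genes does not alter the differences of these genes, so this fit is no check on the sex-linked difference between the groups.

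**Figure D5:**
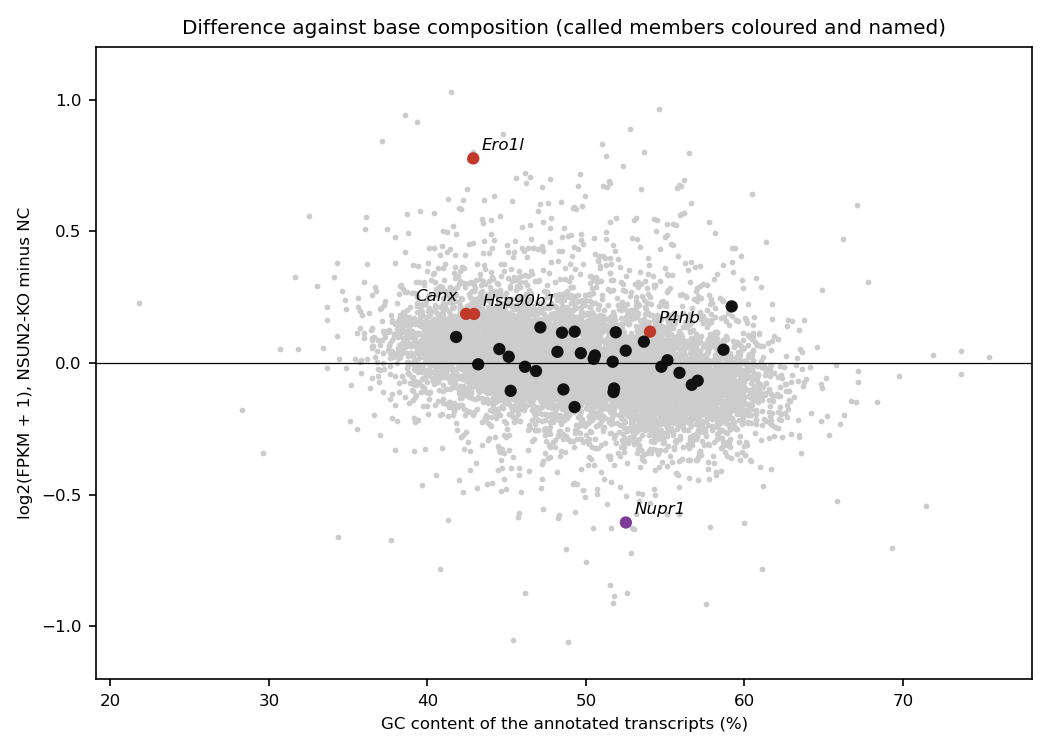
Difference in log2(FPKM + 1), NSUN2-KO minus NC, against the GC content of the annotated transcripts (%), for all tested genes (grey; 7 lie outside the plotted range of 1.2 either side of 0) and for the 34 tested ER and ATF4 genes (black, or coloured and named where called). Hsp90b1 and Canx lie among many low-GC genes with small positive differences, and Ero1l and Nupr1 lie outside the bulk of genes of their GC content.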

How the data were processed

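The authors had deposited FPKM values of 54532 genes in 6 libraries (NSUN2-KO and NC, 3 each), with gene lengths and GRCm38 positions. DESeq2 1.20.0, featureCounts 1.5.0-p3, HISAT2 2.0.5, fastp and CASAVA 1.8 are named by the submitters' processing notes without settings. Neither strand nor annotation release is stated in the sources used here. FPKM times length came out as whole multiples of 1 read (tolerance 0.01 reads) for 100% of values, which gave the reads per library. Libraries were compared in pairs by the chi-square of their reads per gene, whose mean was 5.67 or more, so that none was a copy of another.

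The 35 genes are the rows whose gene name is in a given list. They, the pathway lists and the marker lists were chosen with earlier results of these data known. For genes averaging 1 FPKM or more, log2(FPKM + 1) was fitted in limma 3.58.1 under R 4.3.3 with a trended prior variance and no covariate, and p-values were adjusted over all tested genes by Benjamini-Hochberg. A difference on this scale understates the change of low genes. The fit was also run on simulated reads with known changes; its values are not quoted here. Named beside the 35 genes are Nsun2, the 3 tested genes of smallest p in each further list and any other called gene of these lists, and markers. GC content and exon overlap came from GENCODE vM21, where 54495 of the deposited identifiers were found, and promoter windows from RefSeq (GRCm38.p6). Alternatives changed the pseudocount (0.1, 5), the filter (none, 5 FPKM on average), the prior variance (no trend), the scaling (median ratios, TPM) or the test (voom on reads recovered from FPKM). Others added the replicate number as a block, took out a loess trend over GC content and length (span 0.5), dropped X and Y, or left out each library. Python 3.11.15, pandas 2.3.3 and matplotlib 3.10.9 were used for tables and figures.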

Additional observations from a re-analysis of the deposited data

How the results depend on the processing

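The number of ER and ATF4 genes called higher was 1, in place of 4, with no filter on low values, with no mean-variance trend and with the replicate block, and 1 to 4 without 1 library. The number called lower was 2, in place of 1, with a mean of at least 5 FPKM and with voom on recovered reads, Manf joining Nupr1, and 1 to 2 without 1 library. Over all genes the number called was 265 with no filter, 526 with no trend, 1372 with voom and 351 with the replicate block, against 802, and 276 to 596 without 1 library. The median difference of the 34 genes was 0.04 (0.0364) in TPM and 0.0163 to 0.0307 without 1 library. Nsun2 differed by -0.51 with no filter, where its limma adjusted p was 0.113, and by -0.61 to -0.44 without 1 library, where the call was lost in 5 of 6 fits. Of 575 results of single ER and ATF4 genes under an alternative, 544 kept their side of the threshold, 23 lost and 8 gained a call, and 0 called differences changed sign. Most of the 575 belong to genes that were not called in the main fit. The losses fell on P4hb (9 of 17 alternatives), Hsp90b1 (7 of 17) and Canx (7 of 17), and Ero1l and Nupr1 had 0. Same-numbered libraries did not deviate together (correlations of -0.0095, -0.0298 and 0.0034), and unlike-numbered ones gave -0.0359 to 0.0455. Such values cannot show whether same-numbered cultures were prepared together. No scaling moved the median of all genes by as much as 0.1. The causes were not tested. Herpud1, Asns and Eif2ak3 had 159 to 618 reads per library, and Chac1, which was not tested, had 2 to 24.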
